A study of Mus musculus with 6 samples.

Results

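The genes described here are those of the Wnt, BMP and TGF-beta pathways in the arcuate nucleus (ARC), the region of the medial basal hypothalamus that lies beside the base of the third ventricle. They were taken by gene symbol: the Wnt ligands, Frizzled receptors, Dkk and Sfrp inhibitors, BMP and GDF ligands, TGF-beta ligands, their receptors and the Smads, together with *Axin2*, *Lef1*, *Lrp5*, *Lrp6*, *Nog*, *Chrd*, *Grem1*, *Sost*, *Id1*, *Id2* and *Id3*. The symbols matched 86 of the 24015 genes with a deposited read count, and activins and follistatins were left out. RNA was sequenced from microdissected ARC of 3 control and 3 mutant adult female mice on a mixed background, given as CD-1, 129P2 and C57BL/6 in the labels and without C57BL/6 for this line in the study's methods. All 6 females carried floxed alleles of *Esr1*, the gene for estrogen receptor alpha. The controls (Esr1fl/fl) had no Cre, and the mutants (Esr1 Nkx2-1Cre) carried Cre driven by *Nkx2-1*, which is active across the medial basal hypothalamus and not in the ARC alone. Since only the mutants carried Cre, the presence of Cre and the loss of the receptor cannot be told apart here. The comparison asked which of these genes differed in level when the receptor was removed.

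Wnt ligands bind Frizzled and Lrp receptors at the cell surface, and in the canonical branch this stabilises beta-catenin, which acts with TCF and LEF transcription factors on targets such as *Axin2*. Ligands of the BMP and TGF-beta families bind pairs of type I and type II receptor kinases that phosphorylate Smad proteins, and the Id genes are direct targets of BMP signalling. Both systems are best known for patterning the embryo and for building bone, and in the adult hypothalamus many of their members are expressed in neurons, glia, tanycytes and vessels.

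*Esr1* fell in the mutants. It was at 64.5, 57.5 and 48.5 CPM (counts on the gene per 1000000 counts of its library, with library sizes adjusted by TMM) in the controls, against 11.8, 9.55 and 7.06 CPM in the mutants, a log2 fold change of -2.59 (adjusted p = 0.000884 by the quasi-likelihood test of edgeR, standard error 0.18). Every mutant lay well below every control. Libraries held between 11792440 and 17877137 counts on genes, at which 3 counts correspond to between 0.175 and 0.248 CPM, a floor that covers counting error only. All 10 markers of arcuate neurons on the list used were present, with a summed level of 920 to 980 CPM in the controls, against 1011 to 1409 CPM in the mutants. Of the 10, 8 had a log2 fold change above 0, and 2, *Kiss1* and *Tac2*, were higher in every mutant. The paper describes markers of the neurons that express both as repressed by estrogen. *Tac2* was at 117, 99.3 and 127 CPM in controls and 281, 157 and 161 CPM in mutants. Control 2 stood apart from the other libraries. Its 9 markers of the pars tuberalis and pituitary, tissue that adjoins the ARC, summed to 6.75 CPM against 473 to 773 CPM in the other 5, its endothelial markers to 109 CPM against 150 to 179 CPM, and its fibroblast and meningeal markers to 83.8 CPM against 154 to 328 CPM. Oligodendrocyte markers were higher in all mutants than in any control for 8 of 8 genes, with sums of 676 to 1269 CPM in controls and 1663 to 1793 CPM in mutants. Microglial markers summed to 155 to 170 CPM in controls and 208 to 212 CPM in mutants. Tanycyte and ependymal markers summed to 538 to 926 CPM in controls and 928 to 1194 CPM in mutants, and markers of the neighbouring ventromedial nucleus to 95.2 to 210 CPM and 112 to 320 CPM, with a median log2 fold change of 0.90. Of the 9 tanycyte and ependymal markers, 8 had a log2 fold change above 0. Only *Dio2* was higher in every mutant, at 421, 276 and 321 CPM against 613, 477 and 649 CPM. Of the 6 ventromedial markers, 5 had a log2 fold change above 0, and *Tac1* was lower in every mutant. The part that these differences in marker levels play in the results for the pathway genes was not tested, and in bulk tissue a change in the number of cells of a type and a change in RNA per cell cannot be told apart.

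No member of the 3 pathways passed the adjusted threshold. Of the 86 members, 63 had counts high enough to be tested by edgeR, and 0 of them had an adjusted p-value under 0.05, against 18 of all 15236 genes tested (0.118%). Before adjustment, 12 members (19.0%) had a p-value under 0.05, against 8.85% of all genes tested. Of these 12, *Wnt5a*, *Fzd4*, *Fzd10*, *Sfrp2*, *Bmp6*, *Tgfb2*, *Id2* and *Id3* had higher levels in the mutants, and *Wnt2b*, *Lef1*, *Bmp3* and *Gdf6* had lower ones. Among all genes, 4.84% had such a p-value with a higher level and 4.01% with a lower one. The values of controls and mutants did not overlap for 17 members (27.0%), against 15.8% of all genes. Members with higher values in every mutant numbered 11 and those with lower values 6, where each direction held 7.88% of all genes tested. With DESeq2, 4 members had an adjusted p-value under 0.05, namely *Bmp3*, *Gdf6*, *Lef1* and *Tgfb2*, against 1.27% of all genes. An edgeR fit that kept every gene with a read called *Bmp3*, *Gdf6* and *Lef1*, against 0.471% of all genes.

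The log2 fold change, mutant against control, was above 0 for 46 of the 63 tested members (73.0%) and for 51.0% of all genes tested. Its median was 0.16 over the members and 0.0036 over all genes. Control 2 had the lowest of the 3 control values for 42.9% of the members and for 35.5% of all genes. Without control 2, 48 of the 63 members (76.2%) had a log2 fold change above 0, with a median of 0.18, against 51.4% and a median of 0.0063 for all genes. Among the 8 members with higher levels and an unadjusted p-value under 0.05, control 2 was the lowest control in 7, and 5 of the 8 kept such a p-value without it. Those that lost it were *Fzd4*, *Sfrp2* and *Id3*, which kept it in 1, 2 and 3 of the 6 fits that each left out 1 library. All 4 members with lower levels kept theirs. How often control 2 was lowest among all genes with higher levels and such a p-value was not computed.

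**Figure D1:**
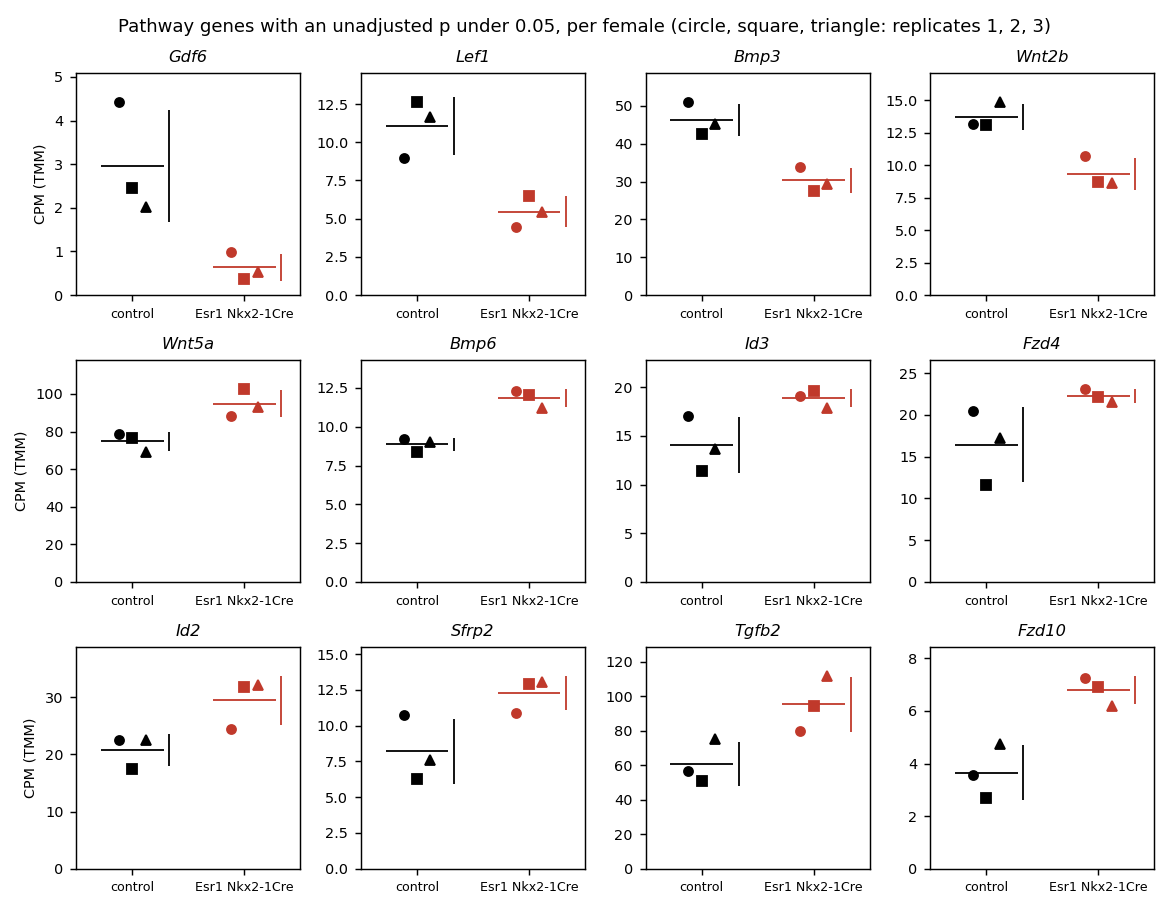
CPM after TMM normalization in each library, 1 panel for each of the 12 members with an unadjusted p-value under 0.05; points are the 3 control and 3 mutant libraries, horizontal lines are group means and vertical lines SD. In all 12 panels the 3 mutant values lie on one side of the 3 control values.

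Promoter sequences are printed for 4 of these 12 genes that represent the roles of transcription factor, ligand and target: *Lef1* and *Wnt2b*, with lower levels in the mutants, and *Id2* and *Tgfb2*, with higher ones. Each window runs from 250 bases before to 50 bases after the annotated start, on the gene's own strand, in RefSeq's annotation of GRCm38.p6. The windows lie at chr3:131110047-131110346 (plus strand) for *Lef1*, which has 4 annotated windows, chr3:104961660-104961959 (minus) for *Wnt2b*, chr12:25096043-25096342 (minus) for *Id2* and chr1:186705940-186706239 (minus) for *Tgfb2*. Capitals mark GGCGCC, a GC-rich element that Smads can bind.
Lef1: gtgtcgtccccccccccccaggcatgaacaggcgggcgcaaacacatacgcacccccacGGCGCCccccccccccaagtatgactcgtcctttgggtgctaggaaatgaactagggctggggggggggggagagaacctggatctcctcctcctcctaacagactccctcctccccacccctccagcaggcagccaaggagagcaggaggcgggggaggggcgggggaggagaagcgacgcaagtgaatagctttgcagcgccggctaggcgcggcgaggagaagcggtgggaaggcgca
Wnt2b: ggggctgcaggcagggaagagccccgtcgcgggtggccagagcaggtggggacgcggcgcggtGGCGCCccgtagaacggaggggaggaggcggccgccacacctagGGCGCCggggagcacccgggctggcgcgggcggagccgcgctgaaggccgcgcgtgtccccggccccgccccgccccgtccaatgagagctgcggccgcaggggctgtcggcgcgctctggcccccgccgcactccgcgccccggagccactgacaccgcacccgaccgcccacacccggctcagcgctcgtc
Id2: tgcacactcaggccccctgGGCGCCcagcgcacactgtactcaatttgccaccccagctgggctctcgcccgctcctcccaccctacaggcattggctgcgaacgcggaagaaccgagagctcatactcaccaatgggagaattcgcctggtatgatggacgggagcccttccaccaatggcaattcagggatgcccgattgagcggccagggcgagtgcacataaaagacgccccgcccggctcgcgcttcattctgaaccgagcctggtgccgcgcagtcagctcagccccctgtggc
Tgfb2: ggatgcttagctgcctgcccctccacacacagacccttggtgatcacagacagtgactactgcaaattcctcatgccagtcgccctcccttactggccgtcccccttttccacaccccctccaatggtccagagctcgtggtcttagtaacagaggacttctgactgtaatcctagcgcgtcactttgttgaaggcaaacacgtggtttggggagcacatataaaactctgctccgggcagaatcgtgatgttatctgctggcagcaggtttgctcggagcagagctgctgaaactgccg

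The GC-rich element lies once in the printed windows of *Lef1* and *Id2* and at 2 places in that of *Wnt2b*, while the *Tgfb2* window has no match. Among the members, 57 of 86 had an entry in the promoter table, with 70 windows in all. GGCGCC, searched on both strands, was in 23 of these 70 windows (32.9%) and in 11.9% of all 32851 windows. The member windows were richer in G and C, with a median GC content of 65.7% against 52.7% for all windows, and the part of this difference in the count was not tested. CTTTGA, the core bound by TCF and LEF factors, was in 8.57% of the member windows and in 16% of all windows. Among the 9 of the 12 genes above with an entry, *Lef1* alone had it, in a window other than the printed one. The palindromic Smad element GTCTAGAC was in 1.43% of member windows and in 0.213% of all windows. A full palindromic estrogen response element was in 0 of the 70 member windows and in 0.07% of all windows. A match or its absence in these 300 bases is a description of the letters and shows nothing of binding. *Bmp3*, *Gdf6* and *Wnt5a* had no entry.

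Of the 19 Wnt ligands, 8 had enough reads in the ARC to be tested, and the other 11 did not. Per length of exon, *Wnt5a*, a ligand of the beta-catenin-independent branch, had the highest level, with a mean of 9.55 CPM per kb in controls and 12.1 CPM per kb in mutants. *Wnt2b*, a canonical ligand, came next at 3.83 and 2.61 CPM per kb, followed by *Wnt4* at 2.72 and 1.91 CPM per kb. *Wnt5a* (chr14:29317936-29340633, plus strand, NCBIM37) was at 78.7, 76.5 and 68.9 CPM in the controls, against 88.4, 103 and 93.1 CPM in the mutants. All mutants lay above all controls, by less than a doubling. The log2 fold change of *Wnt5a* was 0.34 (standard error 0.09, 95% interval 0.14 to 0.55), with an adjusted p of 0.256 from edgeR. *Wnt2b* (chr3:104747723-104764627, minus strand) went the other way, at 13.1, 13.1 and 14.8 CPM in the controls, against 10.7, 8.67 and 8.59 CPM in the mutants. The difference was -0.56 on the log2 scale (adjusted p = 0.261 with edgeR, standard error 0.15), and the groups did not overlap. *Wnt5b* was low, at 1.01, 0.814 and 0.646 CPM against 1.49, 1.01 and 1.40 CPM, with the lowest mutant just above the highest control. Its estimate of 0.64 had a standard error of 0.39. *Wnt4*, which has roles in kidney and female reproductive tract development, overlapped between the groups, at 11.9, 12.4 and 9.83 CPM against 5.69, 11.4 and 6.93 CPM.

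Frizzled and Lrp receptors were all detected, and most of their signal came from *Fzd3* and *Fzd5*. Of the 12 receptor genes, 10 had a log2 fold change above 0, with a median of 0.27. Only *Fzd4* and *Fzd10* had an unadjusted p-value under 0.05 in edgeR, 16.7% of the 12, against 8.85% of all genes tested. *Fzd3*, known for its part in axon guidance, was at 147 CPM per kb in controls and 144 CPM per kb in mutants, and *Fzd5* was at 58.9 and 79.4 CPM per kb. By library, *Fzd5* (chr1:64777134-64784324, minus strand) was at 518, 295 and 409 CPM in the controls, against 581, 578 and 487 CPM in the mutants. Control 2 had the lowest value and mutant 3 lay below control 1, so the groups overlapped. The log2 fold change of *Fzd5* was 0.43 (adjusted p = 0.571 with edgeR, standard error 0.19), and 0.24 without control 2. *Fzd3* (chr14:65819863-65881300, minus strand) ranged from 529 to 699 CPM over the 6 libraries. Its log2 fold change was -0.04, with a 95% interval of -0.30 to 0.23.

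*Fzd10* had the largest ratio among the receptors, at a low level. It lies at chr5:129106719-129109968 on the plus strand and was at 3.55, 2.68 and 4.73 CPM in the controls, against 7.26, 6.91 and 6.20 CPM in the mutants. The lowest mutant was above the highest control, and the log2 fold change was 0.90 (standard error 0.24, 95% interval 0.37 to 1.43, adjusted p = 0.249, edgeR). *Fzd4*, which also serves as the receptor for norrin in blood vessels, was at 20.5, 11.6 and 17.3 CPM in controls and 23.1, 22.2 and 21.5 CPM in mutants. Here the separation from control 1 was narrow, and control 2 was lowest. The difference was 0.44 on the log2 scale (adjusted p = 0.540 with edgeR, standard error 0.19), and 0.23 without control 2. The co-receptors *Lrp5* and *Lrp6* overlapped between the groups, with log2 fold changes of 0.31 (95% interval -0.01 to 0.62) and 0.13 (-0.09 to 0.35).

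**Figure D2:**
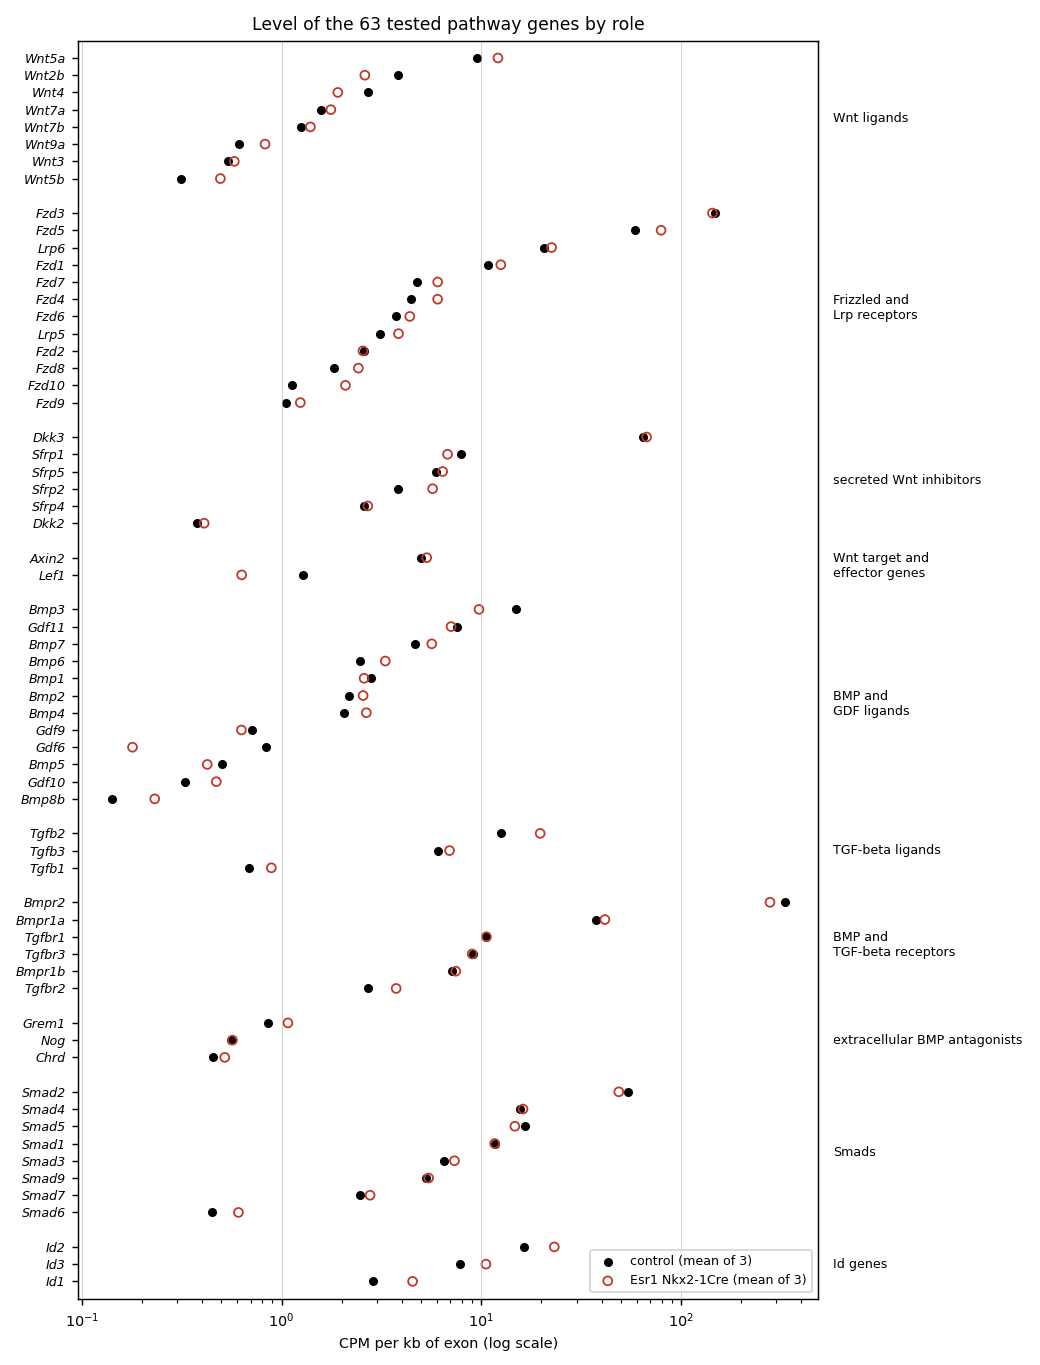
Level per length (CPM per kb of exon, horizontal log axis) of the 63 tested members, grouped by role, with filled points for control means and open points for mutant means of 3 libraries. *Bmpr2*, *Fzd3*, *Dkk3*, *Fzd5* and *Smad2* have the highest levels, and the highest ligand is *Bmp3* in controls, at 14.9 CPM per kb, and *Tgfb2* in mutants, at 19.7 CPM per kb.

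Among the secreted Wnt inhibitors, *Dkk3*, a divergent Dkk family member that is abundant in neurons, was at 64.4 CPM per kb in controls and 67.2 CPM per kb in mutants. By library it was at 224, 201 and 224 CPM in controls and at 222, 246 and 209 CPM in mutants. The groups overlapped, and the log2 fold change was 0.06 (adjusted p = 0.889 with edgeR, standard error 0.09). *Sfrp2* (chr3:83570243-83578238, plus strand), a secreted Frizzled-like protein that binds Wnts, was at 10.7, 6.28 and 7.60 CPM in controls and 10.9, 12.9 and 13.1 CPM in mutants. Mutant 1 and control 1 nearly met. This gave a log2 fold change of 0.59 (adjusted p = 0.408 with edgeR, standard error 0.20), and 0.42 without control 2. *Sfrp1* had the opposite sign, at 34.8, 36.0 and 33.4 CPM against 26.1, 35.7 and 27.0 CPM, with mutant 2 inside the control range. *Sost*, the osteocyte inhibitor sclerostin, had only 2, 2 and 5 reads in the controls and 3, 0 and 3 in the mutants, and *Dkk1* had 1, 0 and 2 against 9, 7 and 5. Both had too few reads for the filter of the main comparison, and when every gene with a read was kept the adjusted p was 0.535 for *Dkk1* and 0.960 for *Sost* with edgeR. For *Dkk1* the groups did not overlap, and an exact two-sided permutation test gave p = 0.1, the smallest that 3 against 3 allows. Any gene without overlap gives this p, so it only restates the separation.

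The Wnt target and effector genes differed from each other. *Lef1* encodes a transcription factor that carries the canonical Wnt signal to DNA, and *Axin2* is a feedback inhibitor that canonical signalling induces. *Lef1* (chr3:130813389-130927274, plus strand) was at 8.98, 12.6 and 11.6 CPM in the controls, against 4.46, 6.47 and 5.46 CPM in the mutants. Every mutant lay below every control, and the group means were 11.1 ± 1.88 and 5.46 ± 1.01 CPM (SD, n = 3 each). The difference on the log2 scale was -1.01 (standard error 0.20, 95% interval -1.46 to -0.57) with an adjusted p of 0.0895 from edgeR and 0.00574 from DESeq2. When any 1 library was left out, the estimate for *Lef1* stayed between -1.16 and -0.89. *Axin2* (chr11:108781663-108812097, plus strand) was at 26.6, 27.4 and 28.3 CPM in controls and 28.7, 32.0 and 27.3 CPM in mutants. The groups overlapped, and its log2 fold change was 0.10 with a 95% interval of -0.13 to 0.33 (adjusted p = 0.846, edgeR).

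The BMP and GDF ligands were led by *Bmp3*, an atypical BMP that opposes osteogenic BMPs. It was at 14.9 CPM per kb in controls and 9.73 CPM per kb in mutants, ahead of *Gdf11* at 7.55 and 7.05 CPM per kb and *Bmp7* at 4.67 and 5.65 CPM per kb. *Bmp3* (chr5:99283458-99309979, plus strand) was at 51.0, 42.7 and 45.3 CPM in the controls, against 33.8, 27.6 and 29.4 CPM in the mutants. All mutants lay below all controls, with group means of 46.3 ± 4.24 and 30.3 ± 3.21 CPM (SD, n = 3 each). Its log2 fold change was -0.62 (standard error 0.11, 95% interval -0.87 to -0.37), with an adjusted p of 0.0706 from edgeR and 0.00165 from DESeq2. No other member had a lower edgeR p-value. Leaving out any 1 library gave values between -0.70 and -0.54.

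*Gdf6*, a ligand with roles in joint and eye development, had the largest ratio of the 63 tested members, at a low level. It lies at chr4:9771519-9789492 on the plus strand and was at 4.42, 2.44 and 2.01 CPM in the controls, against 0.990, 0.377 and 0.533 CPM in the mutants. The highest mutant was below the lowest control. On the log2 scale the difference was -2.25 (standard error 0.46, 95% interval -3.28 to -1.21), with an adjusted p of 0.109 from edgeR and 0.00708 from DESeq2. *Bmp6* (chr13:38436995-38592183, plus strand), the ligand best known for its control of hepcidin in the liver, was higher in every mutant, at 9.18, 8.38 and 9.04 CPM in controls and 12.3, 12.1 and 11.2 CPM in mutants. Its spread within each group was small, and the log2 fold change was 0.42 (adjusted p = 0.391 with edgeR, standard error 0.14). The annotation places an exon of *Txndc5* over *Bmp6* on the opposite strand, and how strand was counted is not given in the sources used here. *Bmp8b*, which has a similar overlap with *Ppie*, was at 0.402, 0.814 and 0.430 CPM in controls and 0.825, 1.01 and 0.866 CPM in mutants. Its log2 fold change of 0.69 had a 95% interval of -0.33 to 1.70. *Bmp2*, *Bmp4* and *Bmp7*, the main osteogenic BMPs, overlapped between the groups, with log2 fold changes of 0.24, 0.37 and 0.28 and intervals that included 0. Without control 2 these estimates were 0.27, 0.48 and 0.47.

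The 3 TGF-beta ligands all had log2 fold changes above 0, and *Tgfb2* was the most abundant. Its level was 12.6 CPM per kb in controls and 19.7 CPM per kb in mutants, against 6.07 and 6.93 CPM per kb for *Tgfb3* and 0.68 and 0.89 CPM per kb for *Tgfb1*. *Tgfb2* (chr1:188447065-188529871, minus strand) was at 56.8, 50.8 and 75.3 CPM in the controls, against 79.9, 94.5 and 112 CPM in the mutants. The groups did not overlap, although control 3 came close to mutant 1. On the log2 scale the difference was 0.65 (standard error 0.17, 95% interval 0.27 to 1.03), with an adjusted p of 0.264 from edgeR and 0.0135 from DESeq2. Its estimates with 1 library left out lay between 0.52 and 0.83. *Tgfb3* was at 28.3, 17.0 and 16.3 CPM in controls and 25.2, 24.8 and 20.4 CPM in mutants, and control 1 exceeded all mutants.

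Of the 6 receptors of the BMP and TGF-beta ligands, 0 had an unadjusted p-value under 0.05 in edgeR, against 8.85% of all genes tested. *Bmpr2*, the type II receptor for BMPs, had the highest level per length of all members, at 331 CPM per kb in controls and 279 CPM per kb in mutants. By library *Bmpr2* (chr1:59821481-59927703) was at 1002, 1116 and 1360 CPM in controls and 869, 943 and 1120 CPM in mutants. The groups overlapped, and the log2 fold change was -0.25 (95% interval -0.54 to 0.05, adjusted p = 0.633, edgeR). *Bmpr1a*, a type I receptor, was at 267, 205 and 241 CPM against 258, 260 and 274 CPM, also with overlap. *Tgfbr2*, the type II receptor for TGF-beta, was at 28.6, 13.0 and 24 CPM in controls and 30.7, 30.0 and 30.2 CPM in mutants. The mutants lay above all controls by little, and control 2 was far below the rest. On the log2 scale the difference was 0.47 (95% interval -0.11 to 1.06), and 0.20 without control 2. For *Tgfbr1*, *Tgfbr3* and *Bmpr1b* the estimates were between -0.01 and 0.06. Without control 2 they were -0.005, -0.12 and 0.32.

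The extracellular antagonists, which bind BMPs and keep them from their receptors, were scarce. *Grem1*, *Nog* and *Chrd* together gave 1.87 CPM per kb in controls and 2.16 CPM per kb in mutants, against 39.7 and 36.0 CPM per kb for the sum of the BMP and GDF ligands. *Bmp1*, which encodes a protease and not a ligand, is counted in that group by its symbol, at 2.80 and 2.59 CPM per kb. *Grem1* was at 3.35, 4.48 and 2.87 CPM in controls and 5.03, 5.09 and 3.26 CPM in mutants. *Nog* was at 0.670, 1.75 and 0.789 CPM against 0.743, 1.13 and 1.40 CPM, and *Chrd* at 2.75, 2.68 and 2.51 CPM against 3.05, 3.64 and 2.40 CPM. All 3 overlapped between the groups. The interval for *Nog* ran from -1.02 to 1.07 on the log2 scale, which spans both a halving and a doubling. An exon of *Thpo* overlaps *Chrd* on the opposite strand.

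Of the 8 Smads, 0 had an unadjusted p-value under 0.05 in edgeR, against 8.85% of all genes tested. *Smad2*, which carries TGF-beta and activin signals, was at 54.2 CPM per kb in controls and 48.8 CPM per kb in mutants, the highest of the 8. It was at 189, 196 and 192 CPM in the controls, against 174, 175 and 171 CPM in the mutants, so that the mutants were all lower by a small step. This is -0.15 on the log2 scale (standard error 0.07), with an adjusted p of 0.571 from edgeR. *Smad5*, a Smad of the BMP branch, was at 122, 116 and 130 CPM in controls and 98.3, 116 and 114 CPM in mutants, with the highest mutant and the lowest control nearly equal. *Smad4*, the partner shared by both branches, had a log2 fold change of 0.06 with a 95% interval of -0.13 to 0.24. The inhibitory Smads *Smad6* and *Smad7* overlapped between the groups, at 0.44 and 0.17 on the log2 scale.

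The Id genes encode helix-loop-helix proteins without a DNA-binding domain and respond to BMP signals in many cells. *Id1*, *Id2* and *Id3* all had log2 fold changes above 0, with a median of 0.51, and their summed level was 27.1 CPM per kb in controls and 38.3 CPM per kb in mutants. *Id2* (chr12:25778666-25780957, minus strand) was at 22.4, 17.5 and 22.5 CPM in the controls, against 24.5, 31.7 and 32.1 CPM in the mutants. The groups did not overlap, with mutant 1 close to the controls. The log2 fold change of *Id2* was 0.51 (adjusted p = 0.300 with edgeR, standard error 0.15), and its unadjusted p-value was under 0.05 in 6 of the 6 fits with 1 library left out. *Id3* (chr4:135699412-135701670, plus strand) was at 17.1, 11.4 and 13.6 CPM in controls and 19.1, 19.7 and 17.9 CPM in mutants. It was higher in every mutant, and control 2 was again the lowest library. This gave a log2 fold change of 0.43 (adjusted p = 0.444 with edgeR, standard error 0.16), and 0.30 without control 2. *Id1* was low, at 4.69, 1.51 and 3.73 CPM against 5.78, 4.65 and 5.33 CPM. Mutant 2 lay just under control 1, and the interval of the difference was -0.13 to 1.47 on the log2 scale. *Id4*, the remaining Id gene and not among the 86, was more abundant per length than these 3 together in controls, at 36.0 CPM per kb in controls and 39.0 CPM per kb in mutants. It was at 78.1, 46.7 and 54.5 CPM against 58.1, 69.8 and 66.5 CPM, with overlap, and its log2 fold change was 0.12 (95% interval -0.29 to 0.53) with all libraries and -0.03 without control 2.

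**Figure D3:**
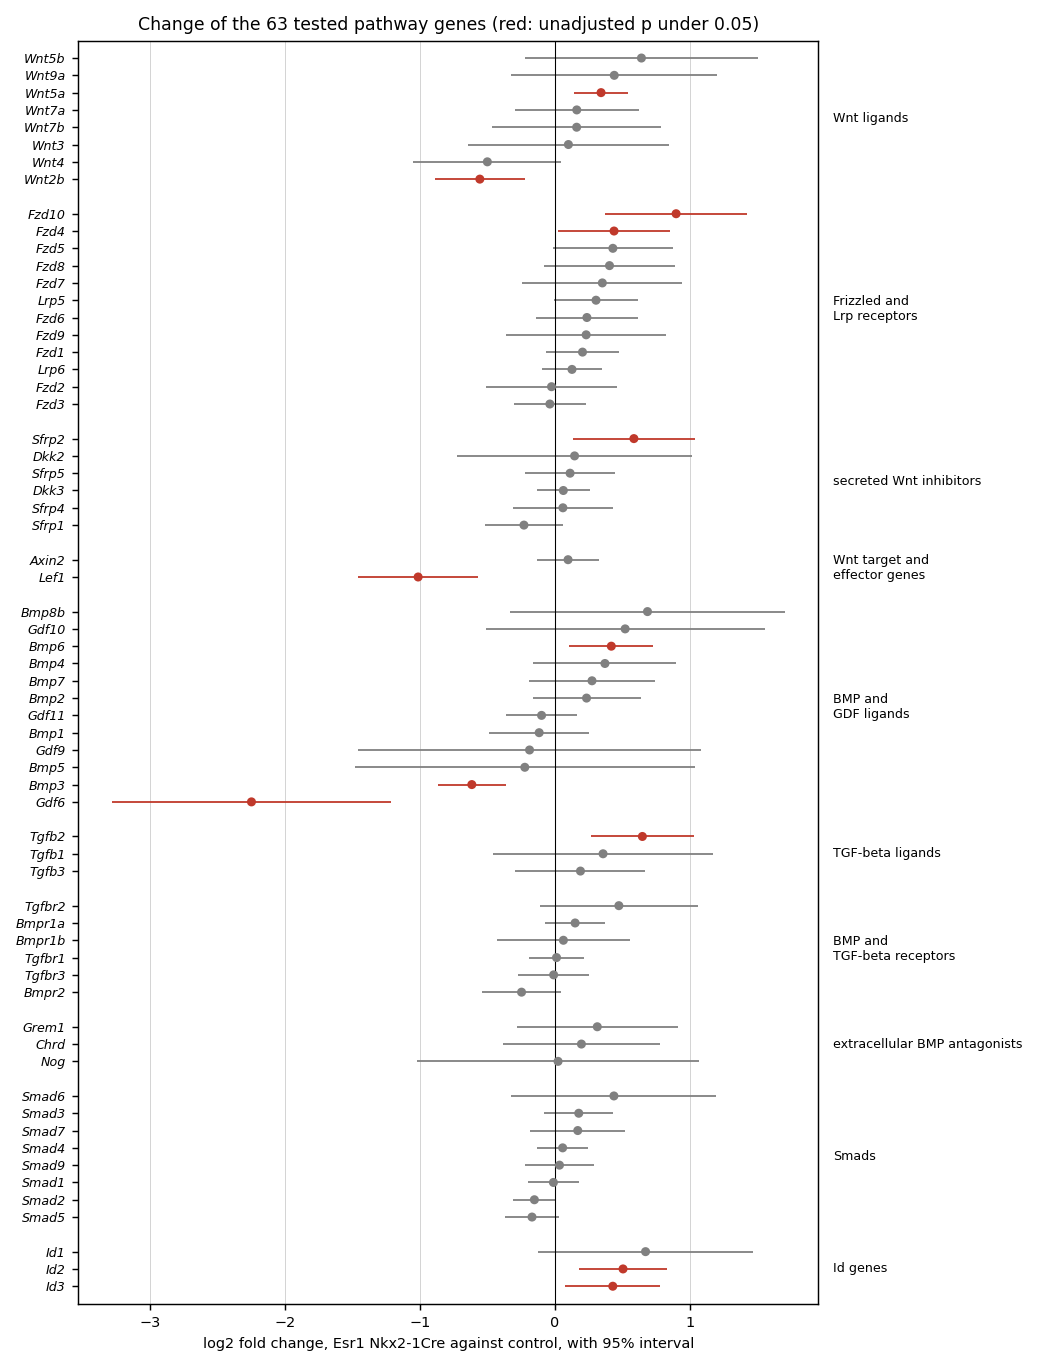
Log2 fold change, mutant against control, of the 63 tested members in groups by role, with 95% intervals from edgeR. *Gdf6*, *Lef1*, *Bmp3* and *Wnt2b* have intervals wholly below 0, *Fzd10*, *Tgfb2*, *Sfrp2*, *Id2*, *Fzd4*, *Id3*, *Bmp6* and *Wnt5a* have intervals wholly above 0, and the other intervals include 0.

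**Figure D4:**
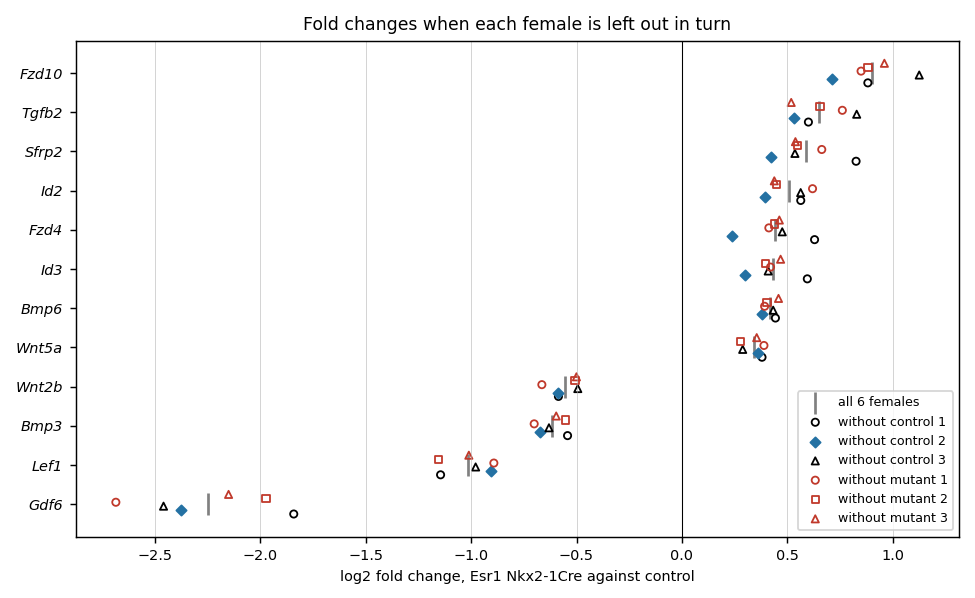
Log2 fold change of the 12 members with an unadjusted p-value under 0.05, from all 6 libraries and from the 6 fits that each left out 1 library. The signs stayed the same in every fit. Without control 2, the estimates of *Fzd4*, *Fzd10*, *Sfrp2*, *Id2*, *Id3*, *Tgfb2*, *Bmp6* and *Lef1* were smaller in size. Those of *Bmp3*, *Gdf6*, *Wnt2b* and *Wnt5a* were larger in size.

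The 23 members that were not tested were 11 Wnt ligands, 9 BMP and GDF ligands, *Dkk1*, *Dkk4* and *Sost*. None of them exceeded 1.07 CPM in any library, the value of *Bmp15* in mutant 2. For 9 of the 23, fewer than 10 reads were counted over the 6 libraries, and *Gdf1*, over which *Upf1* has an exon on the opposite strand, had 0. In *Wnt6*, reads numbered 0, 3 and 4 in the controls and 5, 12 and 7 in the mutants, without overlap. As for *Dkk1*, the exact permutation test gave p = 0.1, which only restates the separation.

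The other genes of these pathways were taken from lists of ligand processing and receptor partners, intracellular components and targets, 102 genes in all, of which 92 were tested. With edgeR 1 of the 92 passed the adjusted threshold, against 0.118% of all genes tested, and 14 (15.2%) had an unadjusted p-value under 0.05, against 8.85% of all genes, 7 with higher and 7 with lower levels in the mutants. The median log2 fold change over the 92 was 0.02. The gene that passed was *Pmepa1*, a TGF-beta-induced membrane protein that binds receptor Smads and dampens the signal. *Pmepa1* (chr2:173049959-173102034, minus strand) was at 68.9, 82.8 and 74.1 CPM in the controls, against 44.6, 45.3 and 51.2 CPM in the mutants. It fell in the mutants, by -0.68 on the log2 scale (standard error 0.10, 95% interval -0.90 to -0.46, adjusted p = 0.0421, edgeR). The adjusted p was 2.06e-05 with DESeq2 and 0.0724 with limma voom. It was 0.0991 without control 3, 0.0927 without mutant 1, 0.222 without mutant 2 and 0.107 without mutant 3, so the call depended on these libraries. The log2 fold change stayed between -0.75 and -0.60 in the 6 fits with a library left out.

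*Skil*, which encodes the Smad repressor SnoN, was at 161, 164 and 165 CPM in the controls, against 124, 137 and 130 CPM in the mutants. The groups did not overlap, and the log2 fold change of -0.32 (standard error 0.07) had an adjusted p of 0.163 from edgeR and 0.0285 from DESeq2. *Tcf7l2*, a partner of beta-catenin like *Lef1*, was at 137, 113 and 109 CPM against 91.4, 99.6 and 84.9 CPM, with a log2 fold change of -0.38 (adjusted p = 0.279, edgeR). The other factors of that family were *Tcf7*, at 2.95, 3.72 and 4.02 CPM against 2.72, 2.76 and 2.26 CPM with a log2 fold change of -0.46 (95% interval -1.02 to 0.09, adjusted p = 0.638, edgeR), and *Tcf7l1*, with a log2 fold change of 0.05 (95% interval -0.30 to 0.40). *Wif1*, a secreted Wnt inhibitor, was at 1.47, 1.45 and 1.43 CPM in controls and 0.413, 0.314 and 0.733 CPM in mutants, or -1.56 on the log2 scale (adjusted p = 0.275 with edgeR, standard error 0.43).

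Some genes of the lists had higher values in the mutants. *Ccnd1*, a cell cycle gene and canonical Wnt target, was at 66.2, 39.1 and 49.6 CPM against 82.2, 72.1 and 73.5 CPM (log2 fold change 0.56, adjusted p = 0.370, edgeR). The groups did not overlap, and an exon of *Oraov1* lies over *Ccnd1* on the opposite strand. *Lgr4* and *Lgr5*, receptors for R-spondins that strengthen Wnt signals, had log2 fold changes of 0.36 and 0.47, and the transcriptional regulators *Zeb2* and *Tgif1* had 0.32 and 0.49. *Frzb* had 0.52, and *Porcn*, *Bcl9* and *Tle1* had -0.29, -0.21 and -0.28; for *Frzb* and *Tle1* the groups overlapped. Of the 7 further BMP and TGF-beta targets on the lists, 7 had a log2 fold change above 0 with all libraries, against 51.0% of all genes. Their median was 0.26. *Id4* is among these 7, and its log2 fold change was below 0 without control 2. An unadjusted p-value under 0.05 was found in edgeR for 0 of the 7, against 8.85% of all genes.

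**Figure D5:**
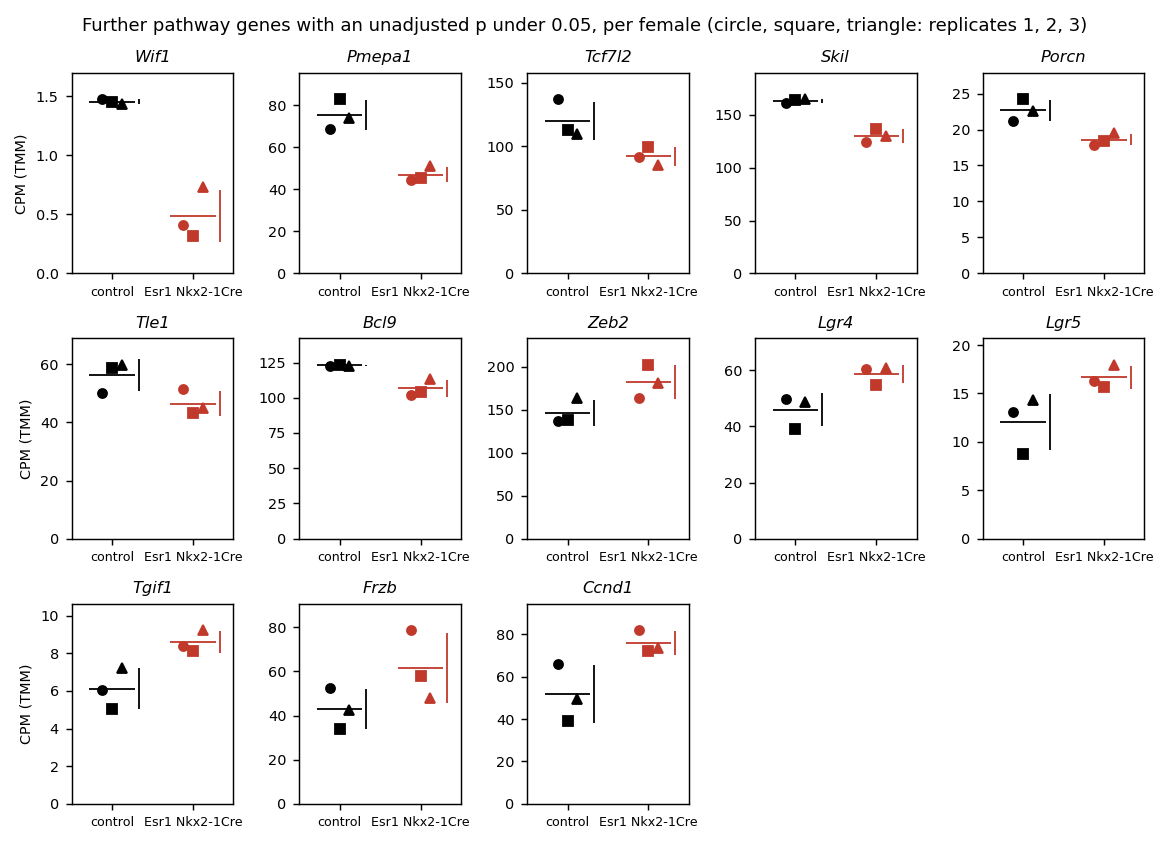
CPM after TMM normalization in each library for other genes of the pathways with an unadjusted p-value under 0.05, except 1 that is not reported here; points are libraries, horizontal lines group means and vertical lines SD. *Pmepa1*, the 1 gene that passed the adjusted threshold, lies between 68.9 and 82.8 CPM in controls and between 44.6 and 51.2 CPM in mutants.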

How the data were processed

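Per the labels, 50 ng of total RNA was amplified for the library of each female, 3 of each genotype. Reads were mapped by the authors with TopHat2 2.1.0 and assigned to genes with HTSeq 0.6, and the deposited values are raw counts for 24015 gene symbols per sample. Their notes also name DESeq2 1.14.1 and the build mm9, whereas the methods of the study write NCBI37/mm10. The counts carry no coordinates, so gene positions and exon lengths were looked up by symbol in GENCODE's annotation of NCBIM37, which gave a position for 86 of 86 members. Promoter windows come from RefSeq's annotation of GRCm38.p6 and were not mixed with these positions.

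Samples were grouped by genotype and number in their labels. The 6 libraries are described as 6 mice, and p-values measure the spread between them. Genotypes were compared by the quasi-likelihood test of edgeR 4.0.16 (R 4.3.3) with TMM normalization on the 15236 genes that passed its default filter on low counts, with Benjamini-Hochberg adjustment over all of them and a threshold of 0.05. Standard errors and 95% intervals were derived from the F statistic and its degrees of freedom. The study used DESeq2, which was an alternative here (1.42.0), together with RLE normalization, limma voom (3.58.1), a filter that kept genes with 1 count or more in any sample, a replicate block and each library left out in turn. The scripts were tested on simulated data.

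The members, the lists of other pathway genes and markers and the rule for the genes named were chosen with earlier results of these data known. The rule takes *Esr1*, members with an unadjusted p-value under 0.05, members whose groups did not overlap with an absolute log2 fold change of 0.5 or more, the 2 highest members of each role per length, *Axin2*, *Lef1*, *Nog*, *Chrd*, *Grem1*, *Sost* and the Id genes, and other pathway genes with an unadjusted p-value under 0.05. Further members named with values (among them *Wnt4*, *Wnt6*, *Dkk1*, *Smad5*, *Tgfbr2*, *Bmp7* and *Bmp15*), and *Tcf7*, *Tcf7l1* and *Id4*, were chosen after their values were seen. The counts over the lists of other pathway genes include 1 gene whose values are not reported here.

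The reads carry no molecular identifiers, and the floor of 3 counts covers counting error only. As a check for duplicate libraries only, chi-square per degree of freedom was computed for each pair and ranged from 6.91 to 31.3.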

Additional observations from a re-analysis of the deposited data

How the results depend on the processing

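The edgeR fit called 18 of all genes, 0 members and 1 other pathway gene. DESeq2 called 191, 4 and 2, limma voom 14, 0 and 0, and a minimum of 1 count in any sample gave 106 genes and 3 members. With a library left out in turn, the fits called 7 to 46 genes, 0 to 0 members and 0 to 2 other pathway genes. The extremes over all genes were 46 without control 2, and 9 and 7 without mutants 2 and 3. The call of *Pmepa1* was lost without control 3 and without mutants 1, 2 and 3, with a log2 fold change between -0.75 and -0.60 in all 6 such fits. Members with an unadjusted p-value under 0.05 numbered 12, and 9 to 21 with a library left out, the 21 without control 1. Members whose groups did not overlap numbered 17, 16 with RLE normalization and 19 with the lower minimum. The matching shares of all genes in these refits and under these alternatives were not computed. These counts therefore cannot be read as a result about the members.

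Whether the replicate numbers pair the samples was not settled, and the main fit treated them as unpaired. Same-numbered samples deviated together with correlations of 0.28, 0.047 and -0.0026, over 0.1 in 1 of 3 pairs. The replicate block called 123 of all genes and 4 members, *Bmp3*, *Gdf6*, *Lef1* and *Tgfb2*.

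For the 44 named genes, 461 of 484 fold changes under the alternatives kept their direction and their side of the threshold, 12 newly passed it, 5 no longer passed it and 6 changed sign. The sign changed for *Fzd3*, at 0.056 without control 2 and 0.052 without mutant 1, for *Dkk3*, at -0.0047 without mutant 2, and for *Nog*, at -0.22 without control 1, -0.15 without control 3 and -0.19 without mutant 3. Over all fits with a library left out, *Fzd3* lay between -0.15 and 0.056, *Dkk3* between -0.0047 and 0.12, and *Nog* between -0.22 and 0.59. None of these genes passed the threshold. The cause was not tested. With 3 females per group, differences in members under about 1 CPM rest on few reads, and their intervals are wide.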
